A study of Caenorhabditis elegans with 2 samples.

Results

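The homeobox genes named ceh encode transcription factors that specify cell fate in the nematode Caenorhabditis elegans. They were examined here for binding of EOR-1 by chromatin immunoprecipitation and sequencing (ChIP-seq) in L3 larvae. The members were the 62 protein-coding genes of the Ensembl annotation named ceh followed by a number, of 19973 protein-coding genes on the nuclear chromosomes, and the Hox gene of that naming pattern was left out. The group was 1, with 2 biological replicates of strain OP81, genotype unc-119(ed3) III; wgIs81, whose label names an insertion targeting eor-1, and the assay was directed against eGFP-tagged EOR-1, with eor-1 given as the antibody. Both replicates carry all of these alleles, and age is given only as the larval stage. The animals were whole L3 larvae of both sexes pooled, with no untagged or wild-type group among the samples used here, so each result is a description of 1 condition. The labels do not say how many copies of the transgene the strain carries or which cells express it. Signal from all cells of a larva is summed, so strong binding in few cells and weak binding in many cannot be told apart.

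EOR-1 belongs to the BTB zinc finger proteins, as human PLZF does, and works with EOR-2 downstream of Ras signalling. Homeobox proteins bind DNA through the homeodomain and are grouped into classes by their sequence, among them the ANTP, PRD, LIM, POU, CUT, SINE and TALE classes. In the nematode many of them act as selectors of the identity of single neuron types, and others act in the pharynx, the epidermis or the gonad.

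The deposited lists on the ce11 genome held 2488 entries for replicate 1, 2610 for replicate 2 and 6708 for the pooled reads of both, and 33 entries in a short list thresholded by IDR (irreproducible discovery rate). The first 3 lists hold background entries besides peaks, so an entry of low rank is a candidate and not a called binding site. The signal value of each entry is the authors' own, ranged in the pooled list from 2.05 to 113.8 with a median of 3.10, and ranks entries within a list only. A ceh peak was a pooled entry whose summit lay inside a ceh gene or within 2000 bp of one of its transcript starts. The depth of sequencing is unknown. Intervals are exact (Clopper-Pearson) 95% binomial intervals unless another is named. They cover the counting of genes or peaks only, and genes and peaks of 1 experiment are not replicates.

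Of the 62 ceh genes, 12 had a pooled peak and 50 had none. The share was 19.4% (interval 10.4 to 31.4) for ceh genes, and 5674 of the 19973 protein-coding genes (28.4%) had a pooled peak by the same rule. The ceh interval holds the share of all protein-coding genes. The peaks numbered 16, with 8 genes having 1 peak and 4 genes (ceh-38, ceh-88, ceh-7 and ceh-58) having 2. All but 1 of the 16 were weaker than rank 1000. The best-ranked peaks were at ceh-38, a CUT-class gene of the ONECUT family (rank 76, signal 15.7), at ceh-60, a TALE-class gene related to vertebrate Pbx (rank 1299, signal 5.18), and at ceh-88 (rank 2030, signal 4.05). The best peak of each gene had a median rank of 2300 over the 12 ceh genes, and of 2813 over the 5674 protein-coding genes with a peak. No test was made of the difference between the shares, since the list was chosen with earlier results of these data known.

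**Figure D1:**
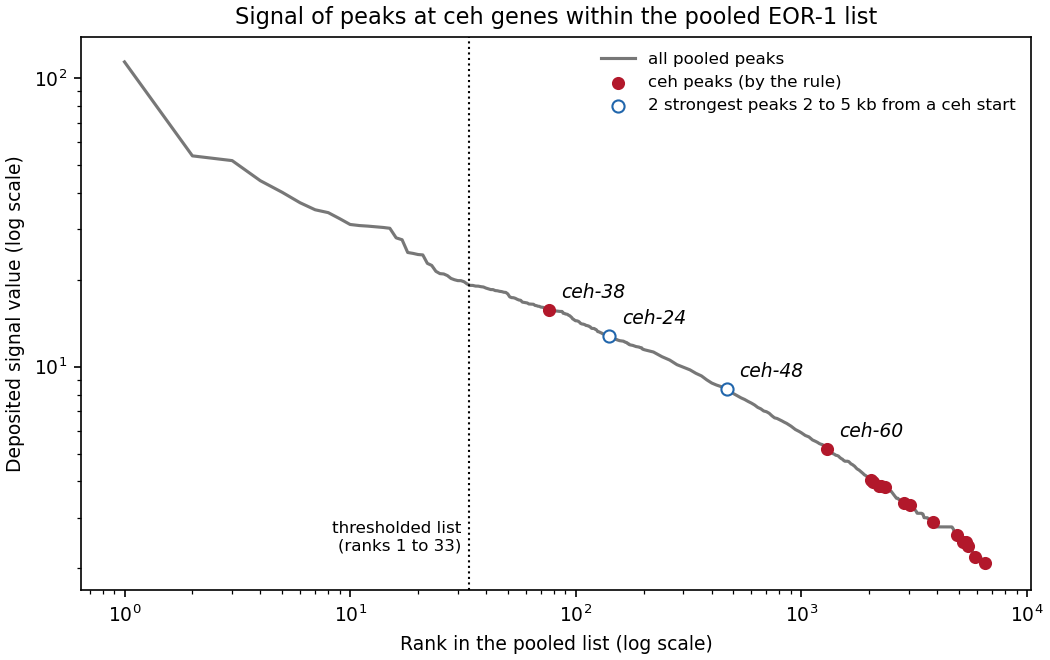
Deposited signal value (vertical axis, log scale) against rank in the pooled list (horizontal axis, log scale) for all pooled peaks (grey line), the 16 ceh peaks (filled red points) and the 2 strongest peaks that lay farther than 2000 bp but within 5000 bp of a ceh start (open blue points). Of the 16 ceh peaks only that of ceh-38, at rank 76, stands among the 1000 strongest, as do the open points of ceh-24 and ceh-48. No ceh peak lies left of the dotted line that marks the 33 thresholded peaks.

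The ceh-38 peak was the single ceh peak among the 500 and among the 1000 strongest. It lay on chromosome II, 6951370 to 6951773, with its summit in a 5′ UTR of ceh-38 (gene 6951526 to 6955409, plus strand), 46 bp downstream of the nearest ceh-38 start. The gene has 11 distinct annotated transcript starts, of which 6 lay within 100 bp of the summit. The summit also lay 272 bp upstream of the start of malt-1, on the minus strand, so it counts for both genes. In replicate 1 the summit was 7 bp away, with rank 51 and signal 10.8. In replicate 2 no summit lay closer than 24753 bp. Among the 100 strongest pooled peaks, 85 had a summit within 200 bp in both replicate lists, 12 in replicate 1 only and 3 in replicate 2 only, and ceh-38 was one of the 12. A second, weaker peak in a coding exon of ceh-38 (rank 3039, signal 3.32, 334 bp downstream of the nearest start) had no partner within 200 bp in either list.

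The bases at the ceh-38 summit are shown because it is the strongest peak of the family, and are limited to 30 because they fall in a UTR. They are from the plus strand of ce11, chrII:6951558-6951587, as the RefSeq genome file of assembly WBcel235 gives them.

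ceh-38: gcagggactccaaagaaatctagatagtat

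The 1000 strongest peaks reached 1 of the 62 ceh genes (1.61%, interval 0.0408 to 8.66), against 5.83% of all protein-coding genes. In the 500 strongest the count was the same 1 gene, against 3.06% of all. None of the 62 had a thresholded peak, against 0.200% of all protein-coding genes. By 3 counts of 62 the limit is 4.84%, and the exact upper bound is 5.78%. With so low a background the absence of a thresholded peak separates nothing. No ceh gene had a pooled peak with a summit in both replicate lists, against 3.16% of all protein-coding genes. The limit that 3 counts give is again 4.84%, and the exact upper bound 5.78%.

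The list of replicate 1 had a peak at 1 ceh gene, ceh-38 (1.61%, interval 0.0408 to 8.66), against 12.7% of all protein-coding genes. The list of replicate 2 had a peak at 5 ceh genes, ceh-9, ceh-20, ceh-37, ceh-88 and ceh-100 (8.06%, interval 2.67 to 17.8), against 13.2% of all. No ceh gene was in both lists. The share of all protein-coding genes in both single lists was not counted, so that absence is not read as a trait of the ceh genes. Counted by peaks, 0 of the 16 ceh peaks had a summit in both, against 7.80% of all pooled peaks and 1.66% of those weaker than rank 1000. Of the 16 pooled ceh peaks, 1 had a summit within 200 bp in replicate 1, 5 in replicate 2 and 10 in neither (62.5%, interval 35.4 to 84.8), against 48.2% of all pooled peaks in neither. Over the 15 ceh peaks of ranks above 1000 the counts were 0 in replicate 1 (exact upper bound 21.8%) and 5 in replicate 2 (33.3%, interval 11.8 to 61.6). The other 10 were in neither (66.7%, interval 38.4 to 88.2). Over all 5708 pooled peaks of those ranks the shares were 23.5% in replicate 1, 22.4% in replicate 2 and 55.8% in neither. The pooled entries contain the reads of both replicates, so these shares are a description and not independent support.

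**Figure D2:**
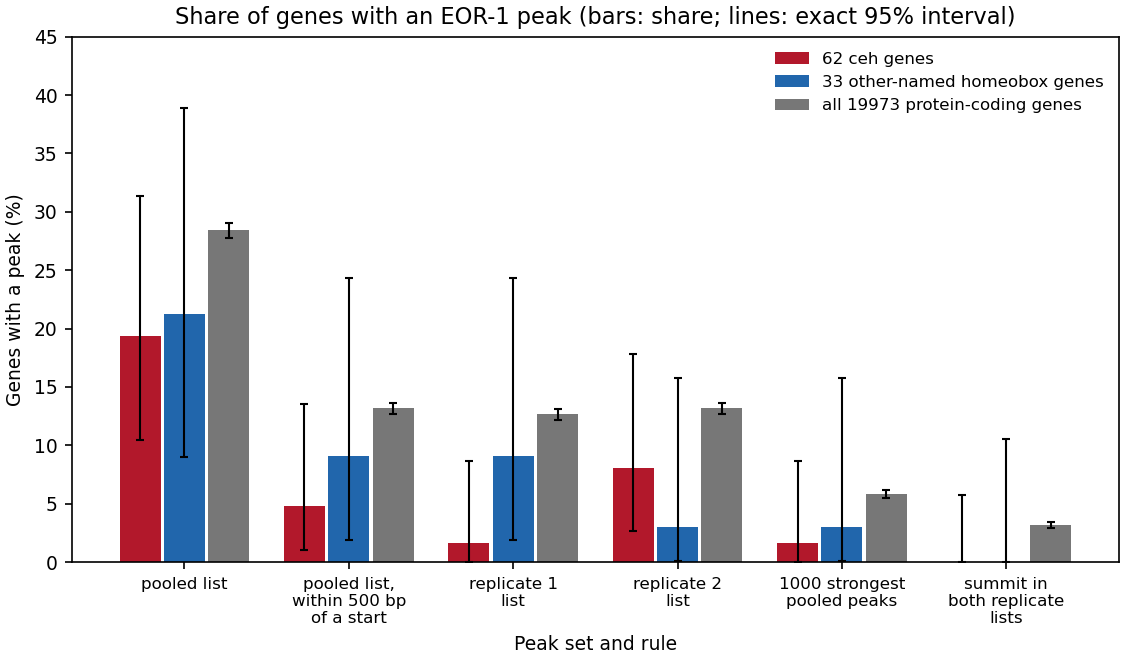
Percentage of genes with a peak (vertical axis) for 6 peak sets or rules (horizontal axis), in the 62 ceh genes (red), 33 homeobox genes with other names (blue) and all 19973 protein-coding genes (grey); lines are exact 95% intervals. The ceh share is below that of all protein-coding genes in each of the 6, from 19.4% against 28.4% in the pooled list to 0 against 3.16% for summits in both replicate lists. The ceh interval holds the share of all protein-coding genes in each of the 6 except the list of replicate 1. The 6 overlap and are not independent.

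By class, the TALE genes had peaks at 2 of 3 members, the POU genes at 1 of 2, the SINE genes at 1 of 3, the PRD genes at 2 of 8, the CUT genes at 1 of 6, the ANTP genes at 2 of 17 and the LIM gene ceh-14 at 0 of 1. The 22 ceh genes not placed in a class here had peaks at 3 members, ceh-58, ceh-88 and ceh-100. Over all protein-coding genes the share with a pooled peak was 28.4%. The class counts are small and no class was compared with another or with that share.

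Among the TALE genes, ceh-20 and ceh-60 encode Pbx-type proteins, cofactors that bind DNA with Hox and Meis proteins. The ceh-20 peak (rank 2355, signal 3.83) lay 982 bp upstream of the start, outside protein-coding genes, and the nearest start of another gene, F31E3.6, was 3179 bp away. It had a partner in replicate 2, 111 bp away at rank 405 with signal 4.51, the best rank of any ceh gene in that replicate's list. It had none in replicate 1, where the nearest summit was 6811 bp away. The ceh-60 peak (X chromosome, 6522730 to 6523133) lay in a coding exon near the end of the gene, 7214 bp downstream of its start, had no partner in either list, and was 3113 bp from the nearest start, that of ets-4. The remaining Pbx-type gene, ceh-40, had no pooled summit within 29942 bp of its start.

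Among the PRD genes, ceh-37 encodes an Otx-type protein that acts in the fate of olfactory neurons, and ceh-45 a Goosecoid-type protein. The ceh-37 summit (X chromosome, peak 14196686 to 14197089, rank 2244, signal 3.86) lay downstream of the gene, 1935 bp from its nearest start, and was at the same base in replicate 2 (rank 1378, signal 2.78). The ceh-45 summit (chromosome I, peak 1131465 to 1131868, rank 2070, signal 3.99) lay in the 3′ UTR of that gene and had no partner in either list. The other 6, ceh-8, ceh-10, ceh-17, ceh-36, ceh-53 and ceh-54, had none. These include ceh-10 and ceh-36, which act in the fate of interneurons and of chemosensory neurons. The summit nearest to the ceh-10 start had rank 690 and was 13305 bp away.

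The SINE gene with a peak was ceh-34, a Six-family gene of the pharyngeal nervous system, whose summit lay in an intron 616 bp downstream of the start (chromosome V, peak 5318759 to 5319162, rank 2221, signal 3.86). It was the only intronic ceh peak, and the nearest summits of the replicates were 45467 bp away in replicate 1 and 33335 bp away in replicate 2. Its neighbour ceh-33 and the Six-family gene ceh-32 had no peak. Of the POU genes, ceh-18, which acts in the gonadal sheath cells, had a peak 1726 bp upstream of its nearest start (X chromosome, 3859321 to 3859724, rank 2844, signal 3.37) and no partner in either list. The remaining POU gene, ceh-6, had none.

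The ANTP genes with a peak were ceh-7 and ceh-9, with peaks at ranks 4916, 5882 and 6521. Both ceh-7 peaks (signal 2.61 and 2.09) lay beyond the 3′ end of that 515 bp gene, and their summits were closer to the start of sphk-1, 894 and 636 bp upstream of it. The ceh-9 summit (signal 2.19) lay in a coding exon of the neighbouring gene Y65B4BR.1 and was at the same base in replicate 2 (rank 1731, signal 2.50). The 15 ANTP genes without a peak included ceh-22, the Nkx-type gene of pharyngeal muscle, ceh-16, the engrailed gene, which acts in the seam cells, ceh-43, the Distal-less gene, ceh-12, which is related to vertebrate HB9, ceh-30 and ceh-31, which are BarH-type genes, and ceh-51, which acts in mesoderm. The rest were ceh-1, ceh-2, ceh-5, ceh-19, ceh-23, ceh-24, ceh-27 and ceh-28.

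Of the 3 unplaced genes with a peak, ceh-88 had the higher-ranked one (chromosome IV, 17331198 to 17331601, rank 2030, signal 4.05), in its 3′ UTR and 127 bp upstream of the start of C49C3.6. Replicate 2 had a summit 32 bp away (rank 1638, signal 2.61). This was the only ceh peak with an exact GAGAGA, the short GA repeat, within 100 bp of its summit. The second ceh-88 peak (rank 5471, signal 2.38) lay 97 bp upstream of the gene's own start. The ceh-100 summit (chromosome II, peak 12604079 to 12604482, rank 3817, signal 2.89) lay 601 bp upstream of ceh-100 and 105 bp upstream of lips-15, and replicate 2 had a summit 90 bp away at rank 552 with signal 3.99. The 2 ceh-58 peaks (ranks 5212 and 5361, signal 2.46 each) lay 443 and 1238 bp upstream, without a partner in either list.

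The ceh-88 bases around that GAGAGA, in capitals, are chrIV:17331321-17331350 of the plus strand, limited to 30 because they fall in a UTR.

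ceh-88: tgcaccagagatGAGAGAcgcgggacaacg

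Relative to their own nearest start, 6 of the 16 ceh summits were upstream and 10 downstream, and 4 were within 500 bp. Outside protein-coding genes (called intergenic here) lay 9 of the 16 (56.2%, interval 29.9 to 80.2), against 49.7% of all 6708 pooled peaks. Introns held 1 (6.25%, interval 0.158 to 30.2) against 29.2% of all, coding exons 3 against 15.1%, 3′ UTRs 2 against 2.31% and 5′ UTRs 1 against 3.74%. The sets are unlike, since ceh peaks were chosen for lying in or near a gene. Of the 6708 pooled peaks, 5771 met that rule for any protein-coding gene, and no shares over those alone were taken. Of the 16, 7 also counted for another protein-coding gene, and for 5 the nearest start was that of another gene.

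**Figure D3:**
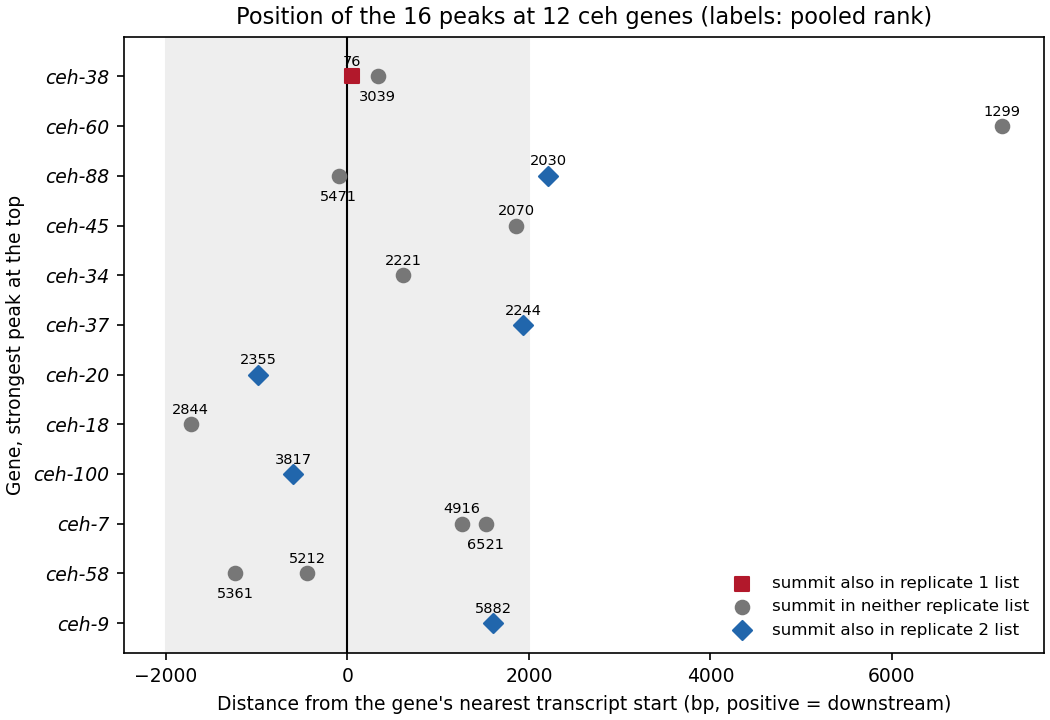
Distance of each of the 16 ceh summits from the nearest transcript start of its own gene (horizontal axis, bp, positive downstream) for the 12 genes with a peak (rows, best rank at the top). Labels give the rank in the pooled list, the grey band marks 2000 bp on each side of a start, and marker colour and shape give the replicate list that held a summit within 200 bp. The ceh-38 summit at 46 bp is the only one with a partner in replicate 1, and 5 summits had one in replicate 2.

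Summits were also counted by their distance from a start alone. Within 500 bp of a start 3 of the 62 ceh genes (ceh-38, ceh-58 and ceh-88) had a pooled summit (4.84%, interval 1.01 to 13.5), against 13.2% of all protein-coding genes. Within 5000 bp the counts were 24 of the 62 (38.7%, interval 26.6 to 51.9) against 44.4% of all, and within 10000 bp 45 of the 62 (72.6%, interval 59.8 to 83.1) against 64.0%. The median distance from a gene's nearest start to the nearest pooled summit was 6008 bp for ceh genes and 6181 bp for all protein-coding genes. Each of these 3 ceh intervals holds the share of all protein-coding genes. The farthest were ceh-39, ceh-21 and ceh-41, 3 neighbouring CUT-class genes on the X chromosome, at 105120, 108556 and 112617 bp from the nearest pooled summit. Their nearest summits were at 32588, 36024 and 40085 bp in replicate 1 and at 104921, 108357 and 112418 bp in replicate 2.

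**Figure D4:**
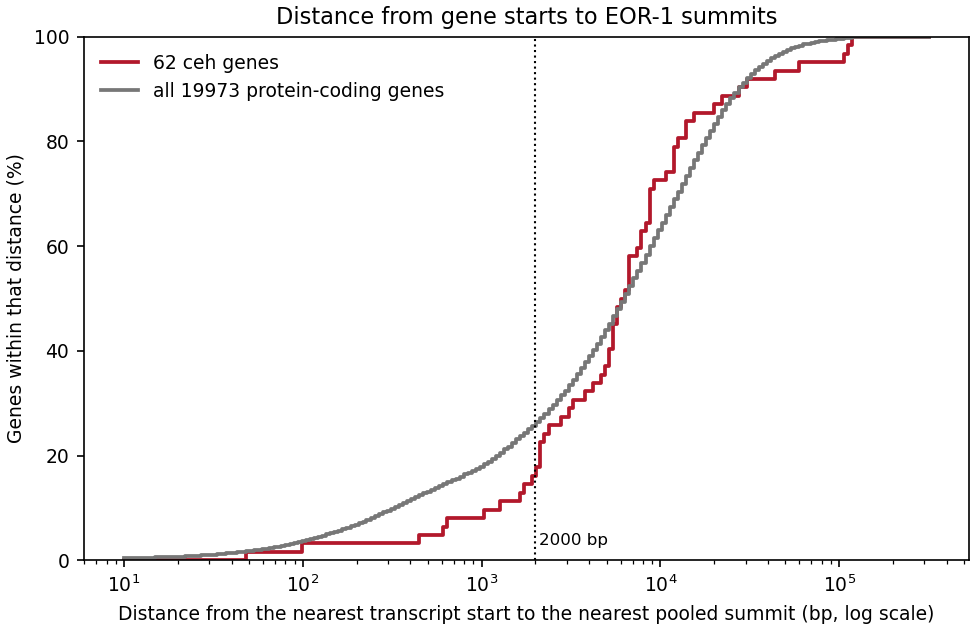
Percentage of genes (vertical axis) whose nearest transcript start lies within a given distance of a pooled summit (horizontal axis, bp, log scale), for the 62 ceh genes (red) and all 19973 protein-coding genes (grey). The ceh line is below the other at 500, 1000, 2000 and 5000 bp and above it at 10000 bp (72.6% against 64.0%).

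Properties of the genes that bear on the count differed as well. The window searched had a median length of 4910 bp for ceh genes and 4175 bp for all protein-coding genes, and the nearest start of another gene lay at a median of 2702 bp from ceh starts and 1978 bp from all starts. Counted over merged windows, there were 16 peaks in 0.353 megabases around ceh genes, 45.3 per megabase (exact Poisson interval 25.9 to 73.6), 68.9 per megabase around all protein-coding genes and 66.9 over the nuclear genome. On the X chromosome 3 of 18 ceh genes had a peak (16.7%), against 31.9% of all its protein-coding genes, and on the autosomes 9 of 44 (20.5%) against 27.9%. Chromosome II went the other way, with 4 of 13 ceh genes (30.8%) against 26.7% of all its protein-coding genes. The part of gene spacing in the lower count was not tested.

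The limit of 2000 bp divided some near neighbours. Just inside were the peaks at ceh-37 (1935 bp) and ceh-45 (1859 bp), and just outside the summits nearest to the starts of ceh-14 (2049 bp, rank 6362), ceh-48 (2112 bp, rank 467) and ceh-99 (2129 bp, rank 4326). In all, 16 further peaks lay within 5000 bp of a ceh start, 2 of them among the 1000 strongest and 1 of them with a summit in both replicate lists. That one, named after its values were seen, was the peak upstream of ceh-48. Besides ceh-38 and ceh-48, the CUT class holds ceh-49 and the genes farthest from a pooled summit, ceh-21, ceh-39 and ceh-41. The ceh-48 peak lay on chromosome IV, 6809794 to 6810197, intergenic, with a signal of 8.34. The protein-coding gene with the nearest start was ceh-48. Replicate 1 had it at rank 869 (signal 3.55) and replicate 2 at rank 753 (signal 3.51). It also held, within 100 bp of its summit, an exact AGACGCAG, an 8-base sequence chosen because earlier results of these lists had it more often in the strongest peaks. The other, 4577 bp upstream of ceh-24, an Nkx-type gene of muscle and neurons, had rank 141 and signal 12.8, a partner in replicate 1 only (rank 122, signal 7.80) and a nearer start in swan-1, 1417 bp away. The limit of 5000 bp also had a close neighbour, since the pooled summit nearest to the ceh-89 start lay 5032 bp away (rank 231, signal 11.01). The nearest summits to that start were 5014 bp away in replicate 1 and 5013 bp away in replicate 2.

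The ceh-48 window is shown with 100 bp on each side of the summit, since it lay within 5000 bp of a ceh start, outside the 2000 bp limit, and had a summit in both replicate lists. The capitals mark AGACGCAG, on the plus strand, and the window is chrIV:6809896-6810096, plus strand of ce11.

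ceh-48: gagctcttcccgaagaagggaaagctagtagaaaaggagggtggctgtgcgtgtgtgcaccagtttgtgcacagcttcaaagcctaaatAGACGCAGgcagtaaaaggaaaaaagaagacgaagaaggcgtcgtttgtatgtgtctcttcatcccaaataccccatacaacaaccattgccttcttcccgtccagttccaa

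Exact matches to AGACGCAG and to GAGAGA were counted on both strands, with overlapping matches counted each. The end of GAGAGA is the start of AGACGCAG, so a match to each can overlap. Of the 16 ceh peaks, 1 held AGACGCAG within 100 bp of the summit and 1 held GAGAGA (6.25% each, interval 0.158 to 30.2). Over all pooled peaks the shares were 7.13% for AGACGCAG and 26.9% for GAGAGA, and the interval holds both. Over ranks above 1000 each was held by 1 of 15 ceh peaks (6.67%, interval 0.169 to 31.95). All pooled peaks of those ranks had 5.43% for AGACGCAG and 23.6% for GAGAGA. The AGACGCAG lay at the ceh-20 peak of rank 2355 and the GAGAGA at the ceh-88 peak of rank 2030. Both sequences also occurred near ceh starts, at sites with no pooled summit within 100 bp. Within 500 bp of a start AGACGCAG occurred at 7 of the 62 ceh genes (11.3%, interval 4.66 to 21.9), against 8.31% of all protein-coding genes, and GAGAGA at 36 (58.1%, interval 44.8 to 70.5), against 48.7%. The 7 genes with AGACGCAG were ceh-6, ceh-14, ceh-45, ceh-83, ceh-91, ceh-93 and ceh-100. A pooled summit lay within 100 bp of 0 of the 8 ceh sites of AGACGCAG, with a limit of 37.5% by 3 counts, against 12.1% of 1767 sites near all starts. For GAGAGA it was 0 of 70 sites (exact upper bound 5.13%), against 6.14% of 19332 sites. The 70 sites lie at 36 genes and overlapping matches were counted each, so they are not independent and that bound is too low. All sites lay near starts, so only a summit near a start could count. Within 500 bp of a start 3 of the 62 ceh genes had a summit (4.84%), against 13.2% of all protein-coding genes. The site counts partly restate that difference. Of these 8 AGACGCAG sites near starts, the nearest to a summit was at ceh-100, 356 bp from the summit of its peak. The match at the ceh-20 peak lay farther than 500 bp from a start and is not among the 8. A match is a description of letters and not a binding site.

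Homeobox genes with other names were counted by the same rule. Of 33 such genes, Hox genes left out, 7 had a pooled peak (21.2%, interval 8.98 to 38.9), against 28.4% of all protein-coding genes, namely dve-1, mls-2, nsy-7, unc-42, unc-62, unc-86 and zag-1. The highest-ranked was unc-62, a Meis-type TALE gene (rank 309, signal 9.86, 845 bp downstream of a start), with a partner at rank 120 in replicate 1 and none in replicate 2. The next was unc-42, a PRD-class gene of neuron identity (rank 3108, signal 3.26, 48 bp upstream), with a partner at rank 1378 in replicate 2 and none in replicate 1. The remaining 5 ranked from 3263 at zag-1 to 6590 at unc-86, and of these nsy-7 had a partner in replicate 1 (rank 1388). None of the 33 had a thresholded peak, against 0.200% of all protein-coding genes, or a peak with a summit in both replicate lists, against 3.16%. By 3 counts of 33 a share of up to 9.09% is allowed, and the exact upper bound is 10.6%.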

How the data were processed

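Per the deposited file lists, the authors called entries on the alignments of each replicate and of both together, with control data, as input for the IDR procedure, and derived a thresholded list. The authors deposited a signal value for each peak. The sources used here do not state its normalization, the aligner, the caller or the filters. The control data and the lists on ce10 were not analysed here. The thresholded peaks were the pooled peaks of ranks 1 to 33.

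Genes came from Ensembl release 115 and sequence from RefSeq, both on WBcel235, which is ce11, and 0 peaks passed the end of a chromosome. Coordinates are 1-based. Equal signal values shared a rank. Where transcripts differed, a 5′ UTR had priority over a coding exon, that over a 3′ UTR, and that over an intron. Summits within 200 bp were shared. Python 3.11.15 with scipy 1.17.1 was used, and the assignment was tested on simulated data. No hypothesis test was made.

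The members, classes, the list of other homeobox genes and both searched sequences were chosen with earlier results of these data known. Classes came from general knowledge, and 1 of 7 CUT names matched no protein-coding gene name. Genes named were those with a peak and the genes placed in a class without one, some of them with ranks or distances. Unplaced genes without a peak were named only for a summit near a distance limit or a sequence match near a start. The 5000 bp flanks, the sites near starts and the assignment by nearest start were added after the data were seen. Alternatives were other distances, peak sets, replicate lists, sharing rules and windows. Sequences of ceh peaks other than those printed are not reported here.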

Additional observations from a re-analysis of the deposited data

How the results depend on the processing

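The share of ceh genes with a peak and the number of ceh peaks moved with the distance and the list. The ceh share was below that of all protein-coding genes under each of the alternatives that follow. Outside the gene, none of them reached beyond 5000 bp from a start. They draw on the same genes and on overlapping lists, so their common direction is not independent support. Inside the gene or within 500 bp of a start there were 9.68% (against 19.3% of all) and 8 peaks, within 1000 bp 12.9% (against 22.4%) and 10 peaks, within 5000 bp 40.3% (against 44.9%) and 32 peaks, and inside the gene only 8.06% (against 12.1%) and 6 peaks. The 1000 and the 500 strongest pooled peaks gave 1.61% and 1 peak each (against 5.83% and 3.06% of all). The thresholded list, and pooled peaks with a summit in both replicate lists, gave 0 and 0 peaks (against 0.200% and 3.16% of all). The list of replicate 1 gave 1.61% (against 12.7%) and 1 peak, with a best rank of 51. The list of replicate 2 gave 8.06% (against 13.2%) and 5 peaks, with a best rank of 405. Each list held different members. Counting only starts gave 17.7% (against 26.3%), any base of a peak 25.8% (against 29.9%) and the nearest start only, added after the data were seen, 14.5% (against 18.9%).

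No ceh peak had a partner in both replicate lists at 100 or 500 bp or by overlap of peaks. Intergenic peaks were 62.5% when only the ceh gene's own parts counted. No gene part could be given for peaks in both lists, since there were 0. With 50 bp around summits 0 ceh peaks held GAGAGA and 0 held AGACGCAG, with 200 bp 3 held GAGAGA and 1 AGACGCAG, and the 1 ceh peak of the 1000 strongest held 0 of either. With 62 genes, 16 peaks and unknown read depth, small differences were not detectable.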
